A study of Caenorhabditis elegans with 2 samples.

Results

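Genes for protein folding helpers were examined for occupancy by KLF-2 as measured by ChIP-seq in Caenorhabditis elegans, a nematode whose KLF-2 belongs to the Krüppel-like transcription factors. The set held 74 of the 19973 protein-coding genes on the nuclear chromosomes. Its members were chosen by name alone: heat shock proteins (hsp), J-domain proteins (dnj), subunits of the cytosolic chaperonin (cct), disulphide isomerases (pdi), the genes enpl, crt, cnx, sti, bag and ero, and 5 stress regulators (hsf-1, xbp-1, ire-1, pek-1 and atf-6). The heat shock symbols hsp-16.1 and hsp-16.48 each stand for a pair of gene models, so the 74 genes carry 72 symbols. The samples were 2 biological replicates of a single group, so no contrast between conditions was made. The worms were of strain RW12310, in which the allele st12310 adds TY1, EGFP and 3xFLAG tags to klf-2 by CRISPR insertion, and all samples carried it. The embryos were mid-stage, had an age of 1.5 hours and were obtained by bleaching. The tagged protein was recovered from sonicated chromatin of whole embryos with an antibody to GFP. The strain label names chromosome II for the insertion, while klf-2 is annotated on chromosome V.

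Chaperones bind unfolded or partly folded proteins, and many of them release these in cycles driven by ATP. HSP70 proteins work with J-domain partners, which stimulate their ATPase, and with exchange factors such as BAG-1. The chaperonins are closed chambers (CCT in the cytosol, HSP-60 in mitochondria). In the endoplasmic reticulum (ER), calnexin, calreticulin, GRP94 and the disulphide isomerases fold secreted and membrane proteins. HSF-1 is the transcription factor of the heat shock response, while IRE-1, PEK-1 and ATF-6 sense unfolded proteins in the ER and XBP-1 is the factor that IRE-1 activates. Many of these genes are active in unstressed dividing cells, while the small heat shock proteins of the hsp-16 family are best known for induction by heat.

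The deposited peak lists are described here by the signal value that the authors' peak caller gave each peak, which ranks peaks within a list. The ranked list of both replicates held 111583 peaks. The conservative list, its stringent subset, held 1032, all of which have a −log10 global irreproducible discovery rate (IDR) of at least 2 in the ranked list. A gene was scored by the highest peak whose summit lay from 1000 bp upstream to 500 bp downstream of a transcript start, and its percentile is its place among all protein-coding genes by that signal value. Read depth is unknown. Whole embryos were used, so strong occupancy in few cells and weak occupancy in many cannot be told apart. Chromatin fragments of 200 to 800 bp limit how finely a summit can be placed between neighbouring starts.

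Of the 74 genes, 8 (10.8%) had a conservative peak in the promoter window, beside 3.05% of all protein-coding genes. They were the J-domain genes dnj-28 and dnj-29, the mitochondrial chaperonin gene hsp-60, pdi-2 and pdi-6 for disulphide isomerases, the constitutive HSP70 gene hsp-1, the chaperonin subunit gene cct-8 and the GRP94 gene enpl-1. Weaker peaks were common: 65 of 74 (87.8%) had a ranked peak in the window, close to the 77.9% of all genes. In the top 10% of genes by signal value, which begins at a signal value of 55, were 21 of the 74 (28.4%), beside 10% of all genes by construction. The count was 11 in the ranked list of replicate 2 alone and 18 in that of replicate 1 alone. The median percentile of the 74 genes was 72.7, against 50 for all genes. These shares describe the lists, and they were not tested because the design has no contrast.

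Sequences at 6 of these 8 genes are shown because the genes are in the conservative list; those of dnj-28 and dnj-29 are not printed here. Each is the genome sequence (WBcel235, the same coordinates as ce11) of up to 50 bp either side of the summit, on the strand of the gene, 5′ to 3′, cut where an annotated untranslated region begins. The summit is base 51, except at enpl-1, where it lies in the 5′ untranslated region and only the bases upstream of that region are shown. Capitals mark a match to a heat shock element of the form GAANNTTC or to CCACG, a part of the ER stress element, which reads CGTGG when it lies on the other strand. The stretches of hsp-60 (chrIII:1619059-1619159), pdi-2 (chrX:4524007-4524107), hsp-1 (chrIV:17278520-17278620), cct-8 (chrIV:1094285-1094385, minus strand), pdi-6 (chrX:7068564-7068632, minus strand) and enpl-1 (chrIV:11119252-11119297) were as follows.
hsp-60: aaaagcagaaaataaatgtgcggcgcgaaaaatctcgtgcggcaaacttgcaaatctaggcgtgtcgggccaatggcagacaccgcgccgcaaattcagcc
pdi-2: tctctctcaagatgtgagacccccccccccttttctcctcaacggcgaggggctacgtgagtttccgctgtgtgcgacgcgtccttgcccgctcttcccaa
hsp-1: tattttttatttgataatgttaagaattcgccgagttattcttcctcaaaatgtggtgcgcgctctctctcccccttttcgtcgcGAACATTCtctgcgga
cct-8: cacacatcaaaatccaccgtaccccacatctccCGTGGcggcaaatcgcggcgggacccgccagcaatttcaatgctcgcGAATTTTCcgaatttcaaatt
pdi-6: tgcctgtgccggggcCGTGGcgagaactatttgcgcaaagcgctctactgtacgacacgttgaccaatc
enpl-1: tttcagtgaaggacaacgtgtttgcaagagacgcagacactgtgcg

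Sites for stress factors and for Krüppel-like factors were sought by their letters. Within 50 bp of the summit, on both strands, GAANNTTC was found at hsp-1 and cct-8, that is in 2 of 8 genes, beside 5.14% of the 1032 conservative peaks and 6.62% of 29304 stretches of the same 101 bp length directly upstream of transcript starts. The other arrangement, TTCNNGAA, was in 0 of 8 (3.49% of peaks and 6.1% of upstream stretches). CCACG was found at cct-8, dnj-28 and pdi-6 (26.9% and 7.95%). The core of the unfolded protein response element, TGACGTG, was in 0 of 8 (1.16% and 0.945%). Of the boxes that Krüppel-like factors recognise, CCGCCC was at dnj-29 and enpl-1 (9.21% and 3.34%), CCACCC at none (4.07% and 2.16%) and CACCC, which is contained in CCACCC, at enpl-1 (14.2% and 6.68%), and those at enpl-1 lie outside the stretch printed. A match is a description of letters, and 8 genes are too few to compare with the other peaks. The central 101 bp of the 8 genes had a median of 52.5% G and C, and those of all 610 genes with a conservative peak had 49.5%.

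**Figure D1:**
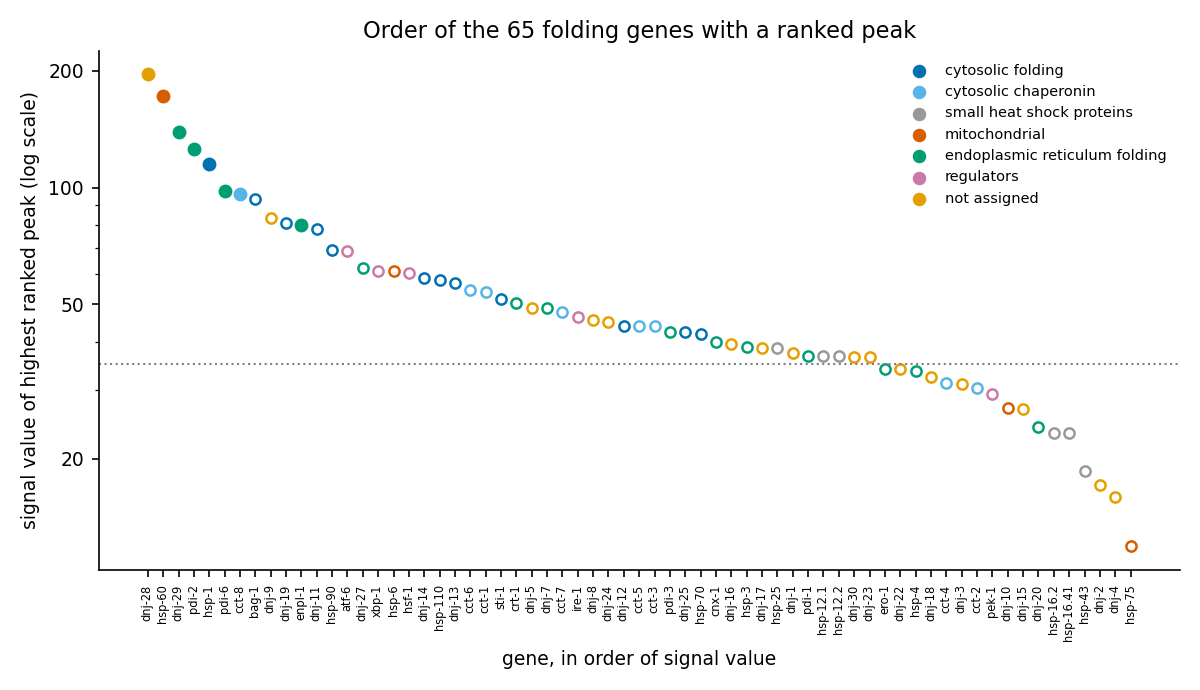
Signal value of the highest ranked peak (log axis) of each of the 65 folding genes that have one, in order, coloured by compartment; filled points have a conservative peak in the promoter window, open points do not. The values run from 196 at dnj-28 to 11.9 at hsp-75, and the dotted line is the median of 35.1 over all protein-coding genes with a ranked peak.

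Genes of the ER folding machinery were 4 of the 8 genes with a conservative peak. The group had 14 members, of which 4 (28.6%) had one, beside 3.05% of all genes. In the thresholded list of replicate 2 alone the count was 2 (14.3%, beside 1.52% of all genes). In that of replicate 1 it was 3 (21.4%, beside 1.29%). All 14 had a ranked peak, beside 77.9% of all genes, with a median percentile of 79.9. Their windows were wider, with a median of 2 starts and 1920 bp, beside 1 start and 1501 bp for all genes. The order was led by dnj-29, a J-domain gene placed in this group by its likeness to SEC63, a partner of ER HSP70 in yeast and mammals. Its peak on chromosome I (14113102 to 14113397) had a signal value of 139, with 76.4 in replicate 1 and 64.1 in replicate 2. The summit lay 142 bp upstream of dnj-29, and 386 bp upstream of ndua-2, a respiratory complex I subunit gene on the other strand. It was also in the window of fld-1, 944 bp upstream of that gene. A lower conservative peak (32.9) followed 343 bp upstream of dnj-29.

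Both disulphide isomerase genes with a conservative peak lie on chromosome X and shared their windows' peaks with no other gene. At pdi-2, which encodes an isomerase that also serves collagen prolyl hydroxylation, the peak (4523909 to 4524204) had a signal value of 126, with 74.2 in replicate 1 and 52.9 in replicate 2, and its summit was 98 bp upstream of the start. At pdi-6 the peak (7068434 to 7068729) reached 98.1, and its summit was 19 bp upstream of the start. The replicates differed by the largest factor there among the 7 of these genes with a value in both: 70 in replicate 1, at rank 365 of 63024, and 28.4 in replicate 2, at rank 5607 of 50044. The pdi-6 peak was also nearest to the limit of the conservative list, with a −log10 global IDR of 2.01.

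The GRP94 gene enpl-1 had the lowest signal value of the 8, at 80.1 (chromosome IV, 11119154 to 11119449), with near-equal values of 37.2 and 39.4 in replicates 1 and 2. Its summit was 4 bp downstream of a start, in the 5′ untranslated region, and the −log10 global IDR was 2.21. The peak was absent from the other series-level thresholded list and from the thresholded list of each replicate. The remaining ER genes had no conservative peak. The J-domain and thioredoxin gene dnj-27 came next at 62, followed by the calreticulin gene crt-1 at 50.4, whose summit lay in its own coding exon 253 bp downstream of the start. The calnexin gene cnx-1 had 39.9, the ER oxidase gene ero-1 34.1 and the J-domain gene dnj-20 the lowest value of the group, 24.1.

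The genes for the ER HSP70 proteins themselves stood lower. At hsp-3 the highest peak had a signal value of 38.9 (percentile 68.9), with 10.5 in replicate 1 and 22 in replicate 2. At hsp-4, which is the one strongly induced by ER stress, it had 33.7 (percentile 58.0), with 15.4 in replicate 1 and no summit within 100 bp in replicate 2. The hsp-4 summit lay in a coding exon of the gene, 658 bp upstream of an annotated start. The gene has 3 starts, and distances count only starts whose window holds the summit.

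The cytosolic folding genes (HSP70, HSP90 and HSP110 with their partners) had the highest median percentile of the chaperone classes, 92. All 12 had a ranked peak, beside 77.9% of all genes. In the top 10% of genes were 8 (66.7%), beside 10% of all genes. A conservative peak was found at 1 (8.33%), beside 3.05% of all genes. That gene was hsp-1, the constitutive HSP70. Its peak on chromosome IV (17278422 to 17278717) had a signal value of 115, with 59.4 in replicate 1 and 57.9 in replicate 2, and the summit lay 389 bp upstream with no other start in reach. The stress HSP70 gene hsp-70 had 41.9, with a summit in an intron of uggt-2 and 15.6 and 22.3 in replicates 1 and 2.

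Just below the conservative list stood 3 partners of HSP70. The exchange factor gene bag-1 had a signal value of 93.4, dnj-19 had 81.1 and the ribosome-associated J-domain gene dnj-11 had 78.4. Their −log10 global IDR values were 1.79, 1.92 and 1.73, and all 3 were in the other series-level list. Replicate 1 was the higher in each: bag-1 had 64.2 there and 20.5 as the highest value anywhere in its window in replicate 2, dnj-19 had 48 and 29, and dnj-11 had 47.4 and no peak in its window. The dnj-19 summit was 14 bp from the start of the nuclear receptor gene nhr-47 and 382 bp from that of dnj-19.

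The HSP90 gene hsp-90 had 69.1 (42.7 in replicate 1 and 26.9 in replicate 2) at a summit in an intron of the gene, and hsp-110 had 57.7 (28.8 and 27). Of the other members, dnj-14 had 58.4, dnj-13 had 56.9, the HOP co-chaperone gene sti-1 had 51.5, dnj-12 had 44.1 and dnj-25 had 42.5. At dnj-14 and dnj-13 replicate 2 had 33.1 and 48.1. In replicate 1 no summit lay within 100 bp of either place, and the highest values in the windows were 25.3 and 24.3. The dnj-13 summit lay in an intron of dhgd-1, with a −log10 global IDR of 0.277. The hsp-90 summit was closer to the start of C47E8.4, at 216 bp, than to that of hsp-90, at 459 bp. That of hsp-110 was closer to rpn-3, a proteasome subunit gene, at 189 bp against 255 bp.

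The signal values of the genes for the 8 subunits of the CCT chaperonin spanned 30.5 to 96.4. A conservative peak was found at 1 of the 8 (12.5%, beside 3.05% of all genes). It was that of cct-8 (chromosome IV, 1094187 to 1094482), with a signal value of 96.4 and 57.7 in replicate 2. In replicate 1 no summit lay within 100 bp of that place, and the highest value in the window was 39.1. The others were cct-6 at 54.4, cct-1 at 53.9, cct-7 at 47.8, cct-5 and cct-3 at 43.9, cct-4 at 31.4 and cct-2 at 30.5. The group's median percentile was 80.4.

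In 7 of the 8 CCT genes the highest peak also lay in the window of another gene, and in all 7 it was closer to that gene's start. Over all protein-coding genes with a ranked peak, 24.8% shared their highest peak and 12.8% had it closer to another gene. The cct-8 summit was 206 bp upstream of Y55F3AR.2, a thioredoxin domain gene, and 415 bp upstream of cct-8. The cct-6 summit was 27 bp upstream of the aldehyde dehydrogenase gene alh-9, that of cct-1 was 155 bp upstream of the dishevelled gene mig-5, and that of cct-4 was 234 bp inside nst-1. The exception was cct-2, whose peak lay 42 bp upstream of its own start. When each summit was counted only for the nearest start, the median percentile of the CCT genes became 52.1. A conservative peak was then at 0 of 8, near the 2.27% of all genes.

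**Figure D2:**
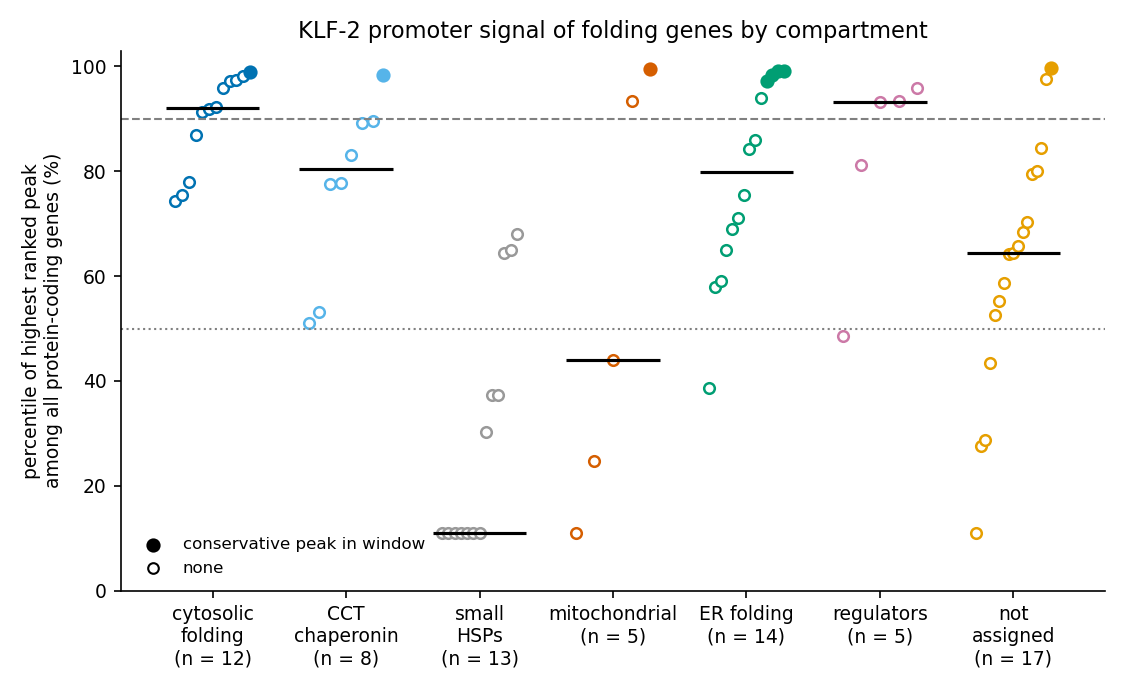
Percentile of the highest ranked peak among all 19973 protein-coding genes, for each of the 74 folding genes by compartment; black bars are medians, filled points have a conservative peak, and the lines mark 50% (dotted) and 90% (dashed). Cytosolic folding genes (median 92) and regulators (93.2) sit highest, and 7 small heat shock genes lie at the lowest value, 11, which is that of genes with no ranked peak.

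The mitochondrial members differed widely. The chaperonin gene hsp-60 was among the highest of all 74 genes, with a signal value of 172 (chromosome III, 1618961 to 1619256) and close values of 84.7 and 89.8 in replicates 1 and 2. The mitochondrial HSP70 gene hsp-6 had 60.8 (32.8 and 25.6), at a summit 43 bp upstream of C37H5.5, a nucleolar complex gene, and 557 bp upstream of hsp-6. The remaining members were low: dnj-10, a DnaJ partner of mitochondrial HSP70, had 27, the mitochondrial HSP90 gene hsp-75 had 11.9, and the import motor gene dnj-21 had no ranked peak. The median percentile of the 5 was 44.

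The hsp-60 peak lay between 2 genes that face away from each other. Its summit was 633 bp upstream of the nearest hsp-60 start on the plus strand and 180 bp upstream of Y22D7AL.10 on the minus strand. RefSeq names the product of Y22D7AL.10 as the mitochondrial 10 kDa heat shock protein, which is the lid of the HSP-60 chamber. The summit thus lay upstream of the genes for both parts of the mitochondrial chaperonin, although Y22D7AL.10 is not in the set because its symbol does not match the naming rule. Within 50 bp of this summit none of the motifs sought was present.

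The small heat shock genes had the lowest median percentile of the groups, 11, which became 36.4 when the 4 genes with repeated windows were left out. Of the 13 genes, 0 were in the conservative list, which is near the 3.05% of all genes, and 6 had a ranked peak, beside 77.9% of all genes. The highest were hsp-25 at 38.5, hsp-12.1 at 36.9 and hsp-12.2 at 36.7. The heat-inducible genes hsp-16.2 and hsp-16.41 stand head to head and shared a peak of 23.3, which had a counterpart within 100 bp in neither replicate's ranked list. No ranked peak was listed for hsp-12.3, hsp-12.6, hsp-17 or the pairs named hsp-16.1 and hsp-16.48. The windows of the 4 genes in those pairs consist of repeated sequence: 94.7% to 100% of their 32-base stretches occur elsewhere in the genome. At these 4 genes a lack of occupancy and a lack of uniquely placed reads cannot be told apart. The windows of hsp-12.3, hsp-12.6 and hsp-17 held no such repeats.

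Of the 5 stress regulators, 0 had a conservative peak, which is near the 3.05% of all genes. In the top 10% of genes were 3 (60%), beside 10% of all genes. The ER stress sensor gene atf-6 had 68.7, xbp-1 had 60.9 and the heat shock factor gene hsf-1 had 60.3. Replicate 1 gave the higher value at all 3. At atf-6 the values were 43.1 and 13.3, with 27.7 as the highest value anywhere in the window in replicate 2, and at hsf-1 they were 30.8 and 21.8. At xbp-1 replicate 1 had 47.1, no summit lay within 100 bp in replicate 2, and the highest value in the window there was 22.2. The xbp-1 summit was in its coding exon, 241 bp downstream, and the hsf-1 summit was in its intron, 330 bp downstream. The kinase genes of the ER stress response were lower, ire-1 with 46.4 (13.4 and 24.8 in replicates 1 and 2) and pek-1 with 29.3. At atf-6 the −log10 global IDR was 0.279, although the gene was in the other series-level list. For ire-1 a conservative summit lay 1346 bp from a start, just outside the window.

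The highest value of all belonged to dnj-28, a J-domain gene that was given no compartment here. Its peak on chromosome I (2996309 to 2996437) was 129 bp wide and ranked 199 of 111583 in the ranked list. The signal value was 196, with 77.7 in replicate 1 and 123 in replicate 2, and the summit lay 109 bp upstream of dnj-28 and 465 bp upstream of supr-1 on the other strand. In its window 15.6% of 32-base stretches were repeated. Another J-domain gene without a compartment, dnj-9, had 83.4, with 27.8 in replicate 1 and 56.1 in replicate 2. The other 15 such members had no conservative peak, their values ranged from 15.9 to 49, and dnj-26 had no ranked peak.

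**Figure D3:**
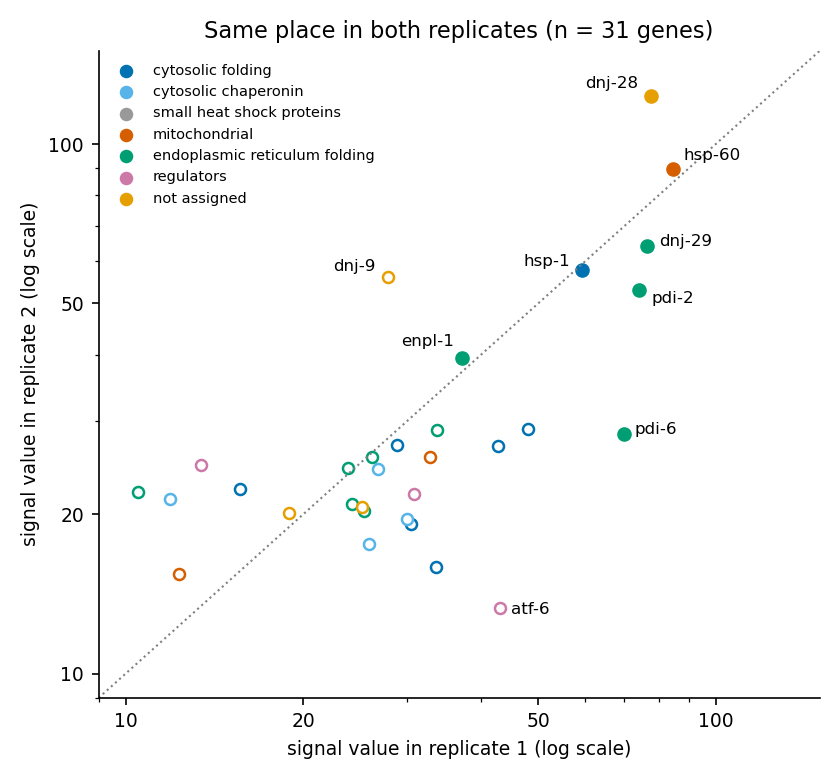
Signal value in replicate 2 against replicate 1 (both axes logarithmic) at the place of each gene's highest ranked peak, for the 31 folding genes with a summit within 100 bp in both replicates' ranked lists; filled points have a conservative peak and the dotted line marks equal values. The named points hsp-1, enpl-1 and hsp-60 lie near the line, pdi-6 and atf-6 are higher in replicate 1, and dnj-28 and dnj-9 in replicate 2. Values are not normalized between the lists, so the line does not mark equal ranks.

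Of the 65 genes with a ranked peak, 31 had a summit within 100 bp of it in both replicates, 13 in replicate 1 only, 8 in replicate 2 only and 13 in neither. Over the 31, Spearman's rho between the replicates was 0.59, as a description across genes of the same pair of libraries. The value was higher in replicate 1 in 20 of them. Values are not normalized between the lists, and the medians over the 31 were 30 in replicate 1 and 24.4 in replicate 2. A higher value is therefore not always a higher rank: hsp-110 had 28.8 at rank 8320 in replicate 1 and 27 at rank 6918 in replicate 2. In the thresholded list of replicate 1, 7 of 74 members (9.46%) had a peak, beside 1.29% of all genes, and in that of replicate 2 7, beside 1.52%. In both lists were 5 genes: dnj-28, hsp-60, dnj-29, pdi-2 and hsp-1. In replicate 1 only were pdi-6 and bag-1, and in replicate 2 only cct-8 and dnj-9. The other series-level list held 12 of the 74 members, beside 3.05% of all genes. Of the 13 members in either series-level list, 7 were in both, and those found in only the other list were bag-1, dnj-9, dnj-19, dnj-11 and atf-6.

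**Figure D4:**
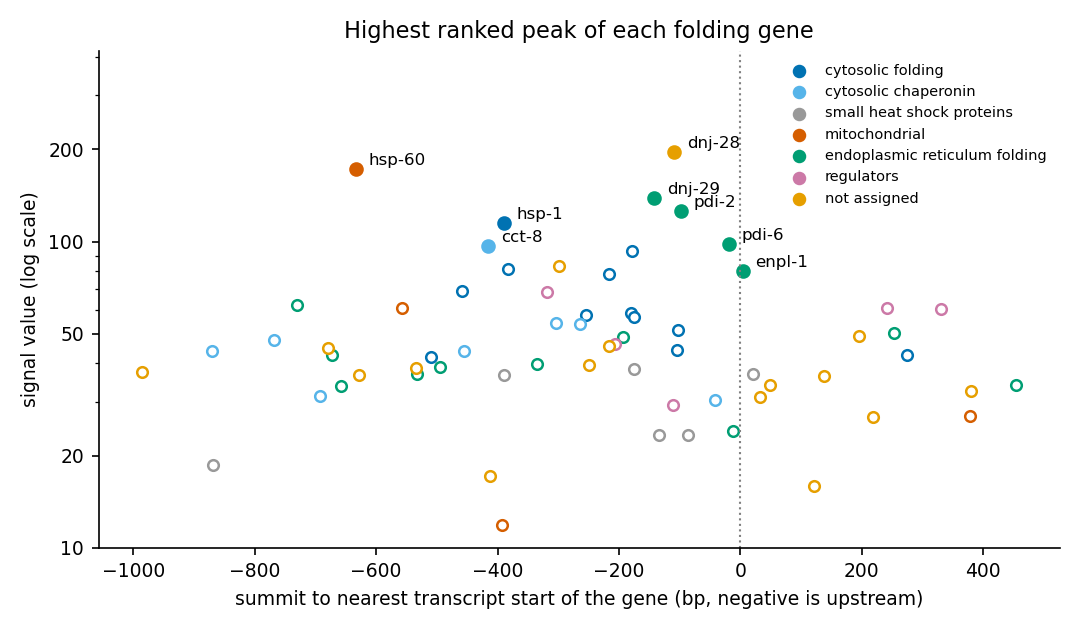
Signal value (log axis) of the highest ranked peak of each folding gene against the distance of its summit in bp, negative values being upstream. Distance is from the nearest start of the gene whose window holds the summit. Filled points have a conservative peak. Of the 8 filled points, 7 lie upstream, from 19 bp (pdi-6) to 633 bp (hsp-60), and enpl-1 lies 4 bp downstream.

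The window reaches 1000 bp upstream and 500 bp downstream of a start, so a larger share of summits upstream is built in. Among the 65 genes, 50 (76.9%) had the highest summit upstream of the nearest start whose window holds it. The share was 67.1% of all genes with a ranked peak. The median distance in either direction was 275 bp against 339 bp. Some of these summits lay inside the gene, upstream of an internal start only, as at hsp-4 and hsp-90. Of the summits, 36 were intergenic, 14 in introns, 13 in coding exons and 1 each in a 5′ and a 3′ untranslated region. All 7 upstream conservative summits were intergenic. None of the 65 summits was within 100 bp of a tRNA, snoRNA or other small structural RNA gene. These counts of summit places were not made over all genes, so whether this set differs in them is not known. Among the 66 members without a conservative peak in the window, 0 had one in the gene body, beside 1.34% of the 19363 genes without one in the window. Within 5000 bp of a start 6 of the 66 (9.09%) had one, close to the 7.5% of those genes.

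Sharing with a neighbour was common in this set. The highest peak of 28 of the 65 genes (43.1%) also lay in another gene's window, beside 24.8% of all genes with a ranked peak. In 23 of the 28 the other gene was on the opposite strand and the summit lay upstream of a start of each. These pairs include overlapping genes, such as hsp-90 and C47E8.4. The share of such pairs over all genes was not counted. In 17 (26.2%) the summit was closer to the other gene, beside 12.8%. Among the 8 with a conservative peak, 5 shared it (dnj-28, hsp-60, dnj-29, cct-8 and enpl-1), and at hsp-60 and cct-8 the other start was nearer. The ER members with a conservative peak were all nearest to their own start. All 4 were thus kept when summits were counted for the nearest start only, beside 2.27% of all genes.

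The number of annotated starts could matter, since a gene with several starts has a wider window. Of the 74 members, 40 had 1 start, as had 14723 of all 19973 genes. Within genes that have 1 start, the median percentile of these 40 members was 71.5, and 4 of them (10%) had a conservative peak beside 2.34% of such genes. In the top 10% of such genes were 13 of the 40.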

How the data were processed

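The authors deposited ChIP-seq peak lists in ce11 coordinates per the labels: for each replicate and for both together, a ranked and an IDR-thresholded list. The notes deposited with the samples derive each list from the alignments and a further file. The caller, the aligner, their versions and the handling of reads that map to several places were not stated in the labels or notes used. The deposited signal value of a peak is the authors' and is not normalized between lists. The deposited −log10 global IDR was used to describe how close peaks are to the conservative list. Of the conservative peaks, 98.8% have a component in the ranked list of replicate 1 and 99.4% one in that of replicate 2. A further 176 ranked peaks reach a −log10 global IDR of 2 but are not in the conservative list, and none lies in a member's window.

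Gene models were Ensembl release 115 (WBcel235). Sequence and neighbours' product names came from RefSeq for the same assembly. Peaks were assigned by summit with Python 3.11.15, pandas 2.3.3 and numpy 2.4.6, in a script tested on simulated data. Genes without a ranked peak shared the lowest percentile. Replicate values are those of the highest peak with a summit within 100 bp. Repeats were counted as 32-base stretches found more than once on either strand. Compartments were assigned from general knowledge of the gene families and, for J-domain genes, of their likeness to proteins of other species, since no annotation used here states them; 17 members were left without one. The group counts and medians rest on this assignment. The members, the groups and the rule for named genes were chosen with earlier results of these data known. Named are members with a conservative peak or in the top 10%, and a fixed list of main chaperones and regulators. Some, not all, of the neighbours that share their peaks are named too, and a few low members picked after their values were seen. With 1 group there was no contrast, so no test was made. Read depth is unknown, so no interval is given. The replicates' labels call them biological.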

Additional observations from a re-analysis of the deposited data

How the results depend on the processing

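Results were recomputed under 12 alternatives, of which 3 were chosen after seeing the data (the most 5′ start of each gene, genes with 1 start, and genes whose windows have at most 10% repeats). Of 196 recomputed values, 152 stayed within 1.5 times of the count or within the spread between the replicates, and 44 moved. The cause was not tested unless it follows from the construction. The spread came from the settings that leave out a replicate, and ran from 2.3 points for all members to 19.1 for mitochondrial genes. The stricter setting set the count in the top 5% beside that in the top 10%. The tally depends on these rules and is no measure of robustness. With 1 replicate left out, 7 members (9.46%) had a thresholded peak in each case, beside 1.29% to 1.52% of all genes. Then 11 to 18 were in the top 10% and the median percentile was 70.1 to 73.3. By group, the medians were then 86.2 to 90.7 for cytosolic folding, 70.5 to 79.4 for the chaperonin, 43 to 70 for mitochondrial genes, 77.3 to 82.2 for ER folding, 75.5 to 88.3 for regulators, 19.3 to 22.6 for small heat shock genes and 54.5 to 69.2 for genes without a compartment. Thresholded peaks then numbered 1 to 2 for cytosolic folding, 0 to 1 for the chaperonin, 2 to 3 for ER folding and 1 to 2 for genes without a compartment. The share of all genes beside these counts is the same 1.29% to 1.52%.

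With each summit counted for the nearest start only, the median of all members was 66.4, of cytosolic folding 88.0 and of the chaperonin 52.1. The chaperonin and mitochondrial counts became 0, near the 2.27% of all genes in that setting. The other series-level list counted 4 cytosolic folding genes (33.3%), 2 without a compartment (11.8%) and 1 regulator (20%), beside 3.05% of all genes. With 500 bp upstream and none downstream, medians were 95.8 for cytosolic folding, 86.1 for ER folding, 74.5 for regulators and 23.5 for small heat shock genes. The mitochondrial count was 0 with this window, near the 2.07% of all genes. With 2000 bp upstream the medians were 69.2 for all members, 88.7, 72.6 and 75.1 for cytosolic folding, the chaperonin and ER folding and 35.1 for small heat shock genes. Counted with that window was 1 regulator, beside 4.12% of all genes. Overlap in place of the summit gave small heat shock genes 33.0, and the most 5′ start gave all members 75.7. Within genes with 1 start, 4 of 40 members (10%) had a conservative peak, beside 2.34% of such genes. In the top 10% of such genes were 13 of 40. By group, 2 of 5 ER genes, 0 of 4 chaperonin genes and 0 of 4 mitochondrial genes had a conservative peak. Both hsp-60 and cct-8 have more than 1 start and were left out. The medians were 95.7 for cytosolic folding, 88.8 for ER folding and 75.2 for regulators. Without repeated windows the medians were 75.2 for all members and 36.4 for small heat shock genes. Of genes without a compartment 0 were counted, since dnj-28 was left out, beside 2.89% of all such genes. The groups hold 5 to 17 genes, so a single gene moves their counts and medians.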
